A study of Mus musculus with 6 samples.

Results

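Bidirectional promoters are stretches of DNA from which 2 genes start back to back, one read to the left and one to the right. A total of 986 H3K4me3 peaks at such promoters were examined in cultured natural killer (NK) cells of mice with and without Tcf7. They made up 7.16% of the 13771 distinct H3K4me3 peaks of the Tcf7+/+ list and 10.0% of the 9827 peaks that lay on chromosomes 1 to 19 and X, were shorter than 4000 bp and overlapped a peak of the Tcf7-/- list. Each of the 986 came within 1000 bp of the transcription start site (start, below) of a minus strand gene and of the start of a plus strand gene lying 0 to 1000 bp to its right. The members were chosen by measured values, namely the presence and extent of H3K4me3 peaks in both libraries, so presence of the mark in both genotypes, peak length and nearness to both starts are not findings. Starts were the annotated 5′ ends of the 18604 Ensembl features named in the 4 deposited peak lists. The members hold 974 distinct pairs of starts, since 24 members shared their pair with another member.

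Splenic NK cells were grown for 5 days with IL-2 at 500 ng/mL, cross-linked for 10 min in 1% formaldehyde, and precipitated with an antibody against H3K4me3 or against Tcf1, the Tcf/Lef family DNA-binding protein that Tcf7 encodes. The wild-type group (WT) is Tcf7+/+ of strain B6, and the knockout group (KO) is Tcf7-/- of strain B6.129 Tcf7Tm1Cle. Each group is 1 library, so no difference between genotypes has a replicate check, no test was run, and genotype and strain background cannot be told apart. The number of mice behind each library was not given in the sources used here. The H3K4me3 lists held 6635272 tags (reads counted in peaks) in 13771 WT peaks and 7507763 tags in 11074 KO peaks. The Tcf1 lists held 74849 tags in 866 WT peaks and 129810 tags in 5139 KO peaks. The KO group lacks Tcf7, so peaks of its Tcf1 list are not read here as Tcf1 binding. How far peaks of the WT Tcf1 list reflect Tcf1 binding was not tested. A Tcf1 peak below means a peak of the Tcf1 antibody list. All 8 NK markers searched (Ncr1, Klrb1c, Eomes, Tbx21, Prf1, Gzmb, Il2rb and Klrk1) carried the mark in WT and in KO alike, and their peaks summed to 12024 and 15040 tags. Of 6 T cell markers, 2 had a peak in WT, Cd3e with 64 tags and Cd3d with 35, and none did in KO. None of 5 B cell and 5 myeloid markers had a peak in either genotype, and of 4 erythroid markers Klf1 alone had one (264 tags in WT, 227 in KO). The share of other cells in the libraries was not tested.

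H3K4me3 is placed on the nucleosomes around active starts by methyltransferase complexes of the SET1 and MLL family. At a typical active promoter the start itself lies in DNA with few nucleosomes, and the mark is strongest over the nucleosomes just inside the gene. Many mammalian housekeeping genes sit in divergent pairs that share 1 CpG-rich promoter, among them genes of DNA repair, DNA replication, mitochondria and RNA processing. Other active promoters give rise to an unstable or long noncoding RNA on the opposite strand.

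The DNA between the starts was short. The distance from the minus strand start to the plus strand start had a median of 133 bp (quartiles 72 and 241.5, range 1 to 987), and it was at most 100 bp at 374 members (37.9%) and at most 300 bp at 818 (83.0%, Wilson interval 80.5 to 85.2). The peak itself covered both starts at 948 members in WT (96.1%) and at 961 in KO (97.5%). The rule required only nearness to both, so the label of a mark across the shared promoter holds for nearly all members. The shortest distances were 1 bp at Tsga10/ENSMUSG00000097268, 2 bp at Rnf185/8430429K09Rik and 2 bp at ENSMUSG00000087644/Prickle3. Among the longest were 987 bp at Btf3l4/Txndc12 and 972 bp at Aldh18a1/ENSMUSG00000097792.

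The DNA between the starts is shown for 7 of the pairs that the rule for named genes, given below, took. They are read 5′ to 3′ on the plus strand, from the base after the minus strand start to the base before the plus strand start, and come from RefSeq promoters of build GRCm38.p6. Capitals mark matches, on either strand, to the CCAAT box (CCAAT), the Sp family box (GGGCGG), the ETS family site (CCGGAAG) or the E2F sites (TTTCCCGC and TTTGGCGC). A match is a description of the letters and shows no bound factor.
Mrps12/Sars2 (chr7:28741821-28741967): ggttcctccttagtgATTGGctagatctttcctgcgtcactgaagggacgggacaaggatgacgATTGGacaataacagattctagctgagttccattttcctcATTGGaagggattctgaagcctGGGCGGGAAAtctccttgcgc
Aurka/Cstf1 (chr2:172370536-172370680): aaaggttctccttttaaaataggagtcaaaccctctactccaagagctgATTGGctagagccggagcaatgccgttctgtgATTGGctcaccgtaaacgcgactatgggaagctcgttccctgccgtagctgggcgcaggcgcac
Vps35/Orc6 (chr8:85299514-85299631): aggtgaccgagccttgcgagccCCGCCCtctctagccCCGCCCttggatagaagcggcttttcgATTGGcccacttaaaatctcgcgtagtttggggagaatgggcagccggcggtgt
Prpf38a/Orc1 (chr4:108579337-108579422): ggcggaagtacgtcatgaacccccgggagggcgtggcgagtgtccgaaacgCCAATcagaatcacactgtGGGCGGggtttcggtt
Cct8/B130034C11Rik (chr16:87495874-87495998): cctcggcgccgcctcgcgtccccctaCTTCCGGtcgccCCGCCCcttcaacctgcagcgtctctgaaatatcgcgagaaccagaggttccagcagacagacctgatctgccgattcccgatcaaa
Psma7/Ss18l1 (chr2:180042434-180042508): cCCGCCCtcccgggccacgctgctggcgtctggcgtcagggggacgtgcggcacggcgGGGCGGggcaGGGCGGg
Zfp142/Bcs1l (chr1:74588247-74588288): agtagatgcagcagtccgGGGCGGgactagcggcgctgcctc

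These 7 stretches differ in their letters. All 7 hold a match, while the stretches at other named pairs, such as Pcna/ENSMUSG00000087377 and Psenen/U2af1l4, hold none. The bases between Mrps12 and Sars2 hold 3 CCAAT boxes and an Sp box that shares bases with an E2F match, and those between Aurka and Cstf1 hold 2 CCAAT boxes. Vps35/Orc6 and Prpf38a/Orc1 combine a CCAAT box with Sp boxes, Cct8/B130034C11Rik holds the only ETS match among the 7, and Psma7/Ss18l1 holds 3 Sp boxes. GC content ran from 49.7% at Mrps12/Sars2 to 84% at Psma7/Ss18l1.

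Promoter windows of the members held more CpG and more often the ETS letters than those of one-sided peaks. One-sided peaks are the 6755 shared peaks shorter than 4000 bp that came near starts of 1 strand only. A RefSeq promoter window of 300 bases, from 250 before to 50 after the start, was matched to 1 gene of 812 members and to the gene of 4395 one-sided peaks. The median window held 25 CpG at members, 21 at one-sided peaks and 7 over all 32851 RefSeq promoters, and the median GC content was 63.3%, 60.7% and 52.7%. The ETS letters CCGGAAG, bound by factors such as Ets1 and GABP, were present on either strand in 250 of 812 member windows (30.8%, Wilson interval 27.7 to 34.0), in 21.2% of one-sided windows (interval up to 22.4) and in 8.86% of all promoters. The YY1 letters AAGATGGCG were present in 5.91% (interval 4.49 to 7.75), 3.98% (interval 3.44 to 4.60) and 1.4% in the same order, so the YY1 intervals of the first 2 classes touch. These intervals cover counting error only, and the windows were not matched for GC content. With a median of 133 bp between the starts, most member windows, and their 250 bases before the start, also take in the partner's start. What this adds to the differences in CpG, ETS and YY1 was not tested. In the 250 bases before the start alone, the shares for ETS were 24.9% and 16%, and those for YY1 were 3.20% and 0.978%, with members first in each case.

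Of the other motifs, TATA alone had Wilson intervals of members and one-sided windows that did not overlap. The Sp box was found in 72.2% of member windows, 69.7% of one-sided windows and 35.7% of all promoters, and the CCAAT box in 42.2%, 40.5% and 37.4%. The NRF1 palindrome was found in 3.45%, 2.71% and 0.971%, and the E2F letters in 4.43%, 3.53% and 1.56%, and for all 4 motifs the Wilson intervals of members and one-sided windows overlapped. The TATA letters TATAAA, the core element of many tissue-restricted genes, ran the other way, with 4.06% at members (interval 2.91 to 5.65), 6.85% at one-sided peaks (interval 6.14 to 7.63) and 13.6% overall. The Tcf/Lef letters CTTTGAT, the site that Tcf1 recognises, were found in 2.46% of member windows, 2.48% of one-sided windows and 3.73% of all promoters. Some matches share bases. Over all promoters 109 CCAAT matches overlapped an Sp match, 87 E2F matches overlapped an Sp match, 65 CCAAT matches overlapped a Tcf/Lef match and 64 ETS matches overlapped an Sp match.

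**Figure D1:**
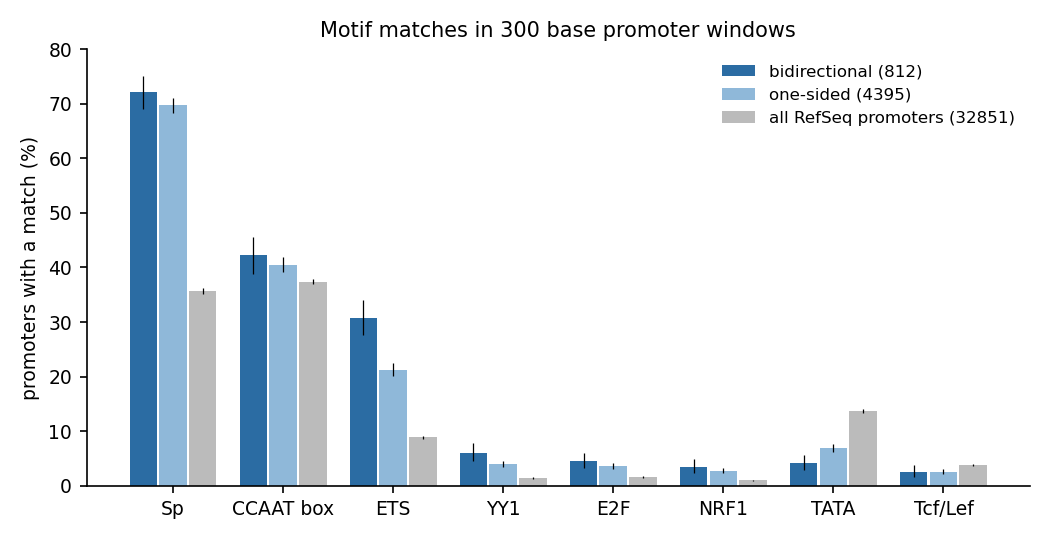
Bars give the percentage of 300 base promoter windows with at least 1 match on either strand, for 812 bidirectional members, 4395 one-sided peaks and 32851 RefSeq promoters, and lines are 95% Wilson intervals. ETS and YY1 were more frequent at members than at one-sided peaks (30.8% against 21.2%, and 5.91% against 3.98%), and TATA was less frequent (4.06% against 6.85%). Most member windows also take in the partner's start.

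The mark peaked inside one of the 2 genes and hardly ever between them. The summit, the position of highest tag pileup in a peak, lay inside the minus strand gene at 518 members, inside the plus strand gene at 450 and between the starts at 18 in WT (1.83%, Wilson interval 1.16 to 2.87). In KO the counts were 521, 449 and 16 (1.62%, interval 1.00 to 2.62). The space between the starts is itself small, with a median of 133 bp against a median WT peak width of 2526 bp. Summits inside a gene lay a median of 263 bp from that gene's start in WT (quartiles 217.75 and 333.25) and 258.5 bp in KO. At one-sided peaks the summit lay a median of 262 bp downstream of the start in WT and 256 bp in KO, and it lay downstream at 6350 of 6755 peaks (94.0%). Over downstream summits alone, the one-sided medians were 269 bp in WT and 263 bp in KO.

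**Figure D2:**
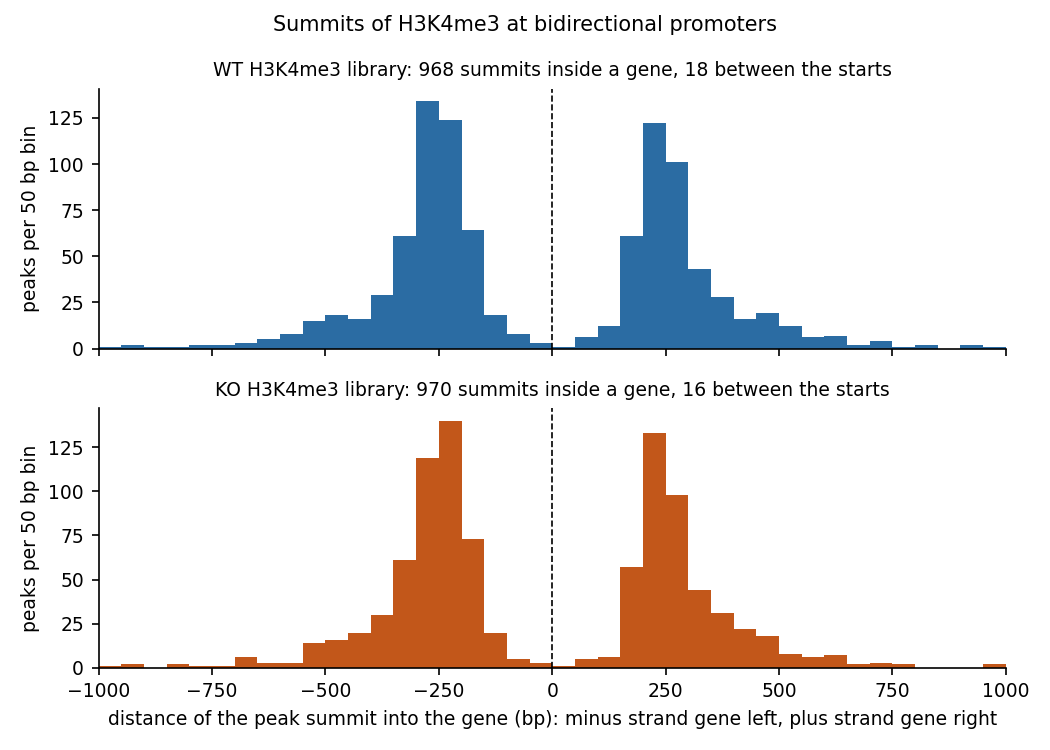
Histograms of the distance from the start to the summit, in bins of 50 bp, with minus strand genes to the left of 0 and plus strand genes to the right, for the WT library (top) and the KO library (bottom). Both libraries show 2 groups of summits, one on each side, centred near the medians of 263 bp and 258.5 bp, with few summits close to either start; 7 WT and 5 KO summits lie more than 1000 bp into a gene and are outside the plot.

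Summits between the starts occurred mainly at long distances. At distances of 400 bp or more they made up 14 of 107 members in each library (13.1%), and in every band of shorter distances there were at most 2. A longer distance also takes up more of the peak, and the shares were not set against that room. Examples are Tst/Mpst, a pair of sulfurtransferase genes 853 bp apart (462 tags in WT, 620 in KO), Wrn/Purg, 798 bp apart (1116 and 1142 tags), and Cep57l1/Sesn1, 967 bp apart (641 and 1043 tags). Wrn encodes a RecQ helicase of DNA repair and Sesn1 a p53-induced stress protein. Of these, Tst/Mpst and Cep57l1/Sesn1 fall outside the rule for named genes and were chosen after their values were seen.

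The same gene of the pair held the summit in both genotypes. Among 966 members with neither summit between the starts, WT and KO summits lay on the same gene at 903 (93.5%, interval 91.7 to 94.9). The 2 summits were a median of 22 bp apart (quartiles 11 and 42) and within 100 bp of each other at 876 members (88.8%). Both libraries share the mappability of each locus. Brca1/Nbr1, a pair of a homologous recombination gene and an autophagy receptor gene, was an exception. Its WT summit lay 901 bp into Nbr1 and its KO summit 295 bp into Brca1. At Exoc8/Sprtn the WT summit lay 415 bp into Exoc8, an exocyst subunit gene, and the KO summit 284 bp into Sprtn, a protease gene for DNA-protein crosslinks.

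Where 1 gene of the pair was annotated as protein-coding and the other was not, the summit mostly lay on the coding gene. Features with no Entrez identifier have no gene type here and were counted as not coding. Counted at each of the 986 members, so that a shared pair counts again, the partners were protein-coding genes 1570 times, Ensembl features with no Entrez identifier 230 times, long noncoding RNA (lncRNA) genes 130 times and others 42 times. Pairs with 1 coding gene made up 364 members, and at 324 of the 356 with a WT summit inside a gene it lay inside the coding gene (91.0%, interval 87.6 to 93.6), against 328 of 358 in KO (91.6%, interval 88.3 to 94.1). The share was alike for coding genes on the minus strand (180 of 196) and on the plus strand (144 of 160), and for lncRNA partners (106 of 117) and partners without an Entrez identifier (187 of 205). In the 603 pairs of 2 coding genes, the summit side in WT was near 50% by strand and by gene length. The minus strand gene held it at 310 of 596 (52.0%, interval 48.0 to 56.0) and the longer gene at 299 of 596 (50.2%, interval 46.2 to 54.2).

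**Figure D3:**
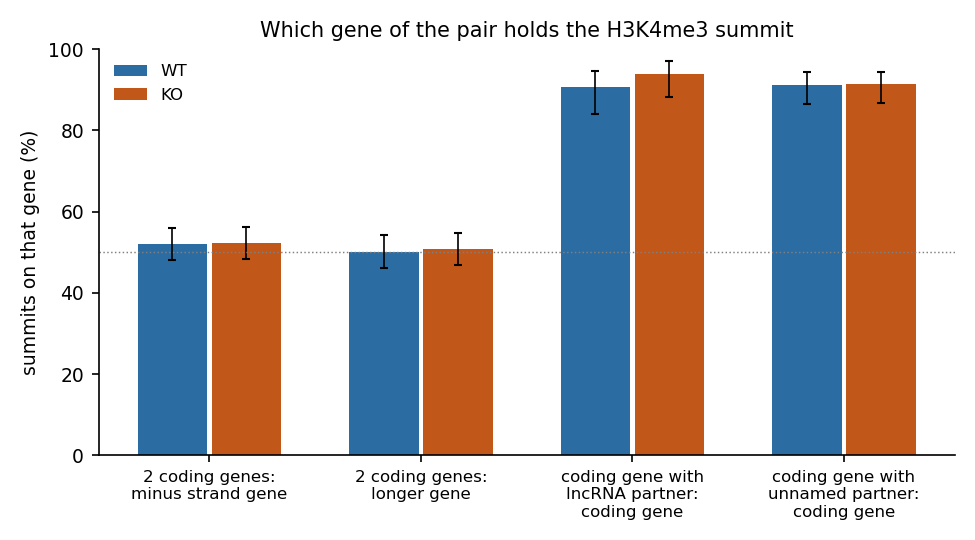
Bars give the percentage of summits, among those inside a gene, that lay on the gene named under the bar, for the WT and KO libraries, with 95% Wilson intervals as lines and a dotted line at 50%. Pairs of 2 coding genes sit near the dotted line by strand and by gene length, while coding genes paired with a lncRNA or with a feature lacking an Entrez identifier (the unnamed partner) hold about 9 in 10 summits.

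Peak shape followed the same side. The WT peak reached a median of 1191 bp beyond the minus strand start and 1166 bp beyond the plus strand start, while one-sided peaks reached 1374 bp downstream and 628 bp upstream of their start. The member values are split by strand and the one-sided values by gene direction, so the nearness of the member values does not show symmetric peaks. At single members the longer WT arm lay on the side of the WT summit at 791 of 968 (81.7%). The longer KO arm lay on the side of the WT summit at 795 (82.1%). In pairs with 1 coding gene the WT peak reached 1365 bp beyond the coding start and 810.5 bp beyond the other, and the KO peak reached 1362 and 759 bp.

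At matched width, members held slightly fewer tags than one-sided peaks. Nearness to starts on both strands favours wide peaks, so the width of the members, and the level that goes with it, are a description of the choice and not a finding. Their median was 619.5 tags in WT (quartiles 414 and 847, range 32 to 2006) against 463 at one-sided peaks, a ratio of 1.34, and 778 against 562 in KO, a ratio of 1.38. Median width was 2526 against 2062 bp in WT and 2465.5 against 2002 bp in KO. Per kb of peak the medians were 242.55 against 221.43 tags in WT and 316.76 against 280.45 in KO, ratios of 1.10 and 1.13. Among peaks of 2000 to 2500 bp members had a median of 514 WT tags and one-sided peaks 528, and among peaks of 2500 to 3000 bp the medians were 699.5 and 751. Some one-sided peaks may have a partner that the lists do not name. Of 6578 one-sided peaks looked up in the RefSeq promoters, 328 (4.99%) had a RefSeq gene starting divergently within 1000 bp, and without them the ratio of WT tags was 1.36.

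The distance between the starts bore little on width or level. Across the 986 members, which share 1 library, it correlated with WT width at a Spearman correlation of 0.13 (Pearson r 0.10) and with KO width at 0.19 (Pearson r 0.20), and with WT tags at 0.02 (Pearson r 0.01). Median WT width went from 2462.5 bp at distances under 50 bp to 2678 bp at 400 bp or more, a step smaller than the added distance. X-linked members numbered 19 (1.93%, interval 1.24 to 2.99), against 244 of the one-sided peaks (3.61%, interval 3.19 to 4.08).

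The 10 members with most WT tags had between 1615 and 2006. Kmt2c, an H3K4 methyltransferase gene paired with ENSMUSG00000097236, had 2006 tags in WT and 2221 in KO, and Arhgap21, a GTPase-activating protein gene paired with ENSMUSG00000075514, had 1963 and 2003. Trip12/Fbxo36, with the ubiquitin ligase gene Trip12, had 1785 and 1984. Dnajb4/Fubp1, a chaperone gene and a single-strand DNA-binding protein gene, had 1716 and 2043. The next 6 were Usf2/Gm4673 (1704 and 1742), E130307A14Rik/Rev3l (1702 and 2035), Slc39a7/Rxrb (1655 and 1857), Phf2/ENSMUSG00000086889 (1630 and 1618), Exoc8/Sprtn (1621 and 1862) and Dpm1/Mocs3 (1615 and 1712). Rev3l is the catalytic subunit of a translesion polymerase, Rxrb a nuclear receptor and Phf2 a histone demethylase. Phf2 alone of the 10 had fewer tags in KO than in WT before any scaling.

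The KO over WT ratio of most members lay close to that of all shared peaks. The log2 ratio of KO over WT tags was centred on the median of all 10664 shared peaks, where KO tags stood 0.25 above WT tags on the log2 scale, so every ratio below is relative to that shift. The deposited fold enrichment, over a background not given in the sources used here, went the other way, with medians at members of 43.5 in WT and 20.9 in KO and at one-sided peaks of 40.8 and 18.97. Depth and enrichment cannot be told apart as sources of the shift. The median ratio was 0.06 at members (quartiles -0.05 and 0.19) and 0.00 at one-sided peaks. Beyond 0.5 in size, 26 of 986 members were higher in KO (2.64%), against 2.84% of all shared peaks, and 26 were lower (2.64%, interval 1.81 to 3.84), against 7.84% of all shared peaks and 486 of 6755 one-sided peaks (7.19%, interval 6.60 to 7.84). The share lower in KO was below that of one-sided peaks in each band of WT tags, at 6.25% against 13.9% under 200 tags, 8.82% against 11.3% from 200 to 400, 1.08% against 4.56% from 400 to 800, and 0.69% against 1.65% above. The share higher in KO was 7.81% against 10.1%, 8.82% against 2.38%, 1.29% against 0.66%, and 0% against 0.22% in the same bands. Whether fewer cells carry the mark or each cell carries less cannot be told apart in bulk chromatin.

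Counting intervals of the ratio lay wholly above 0 at 290 members (29.4%), against 20.1% of all shared peaks, and wholly below 0 at 111 (11.3%), against 23.1%. Pairs of 2 coding genes had a median of 0.09, with 13 of 603 above 0.5 (2.16%) and 7 below -0.5 (1.16%). Pairs with 1 coding gene had a median of 0.01, with 12 of 364 above (3.30%) and 18 below (4.95%, Wilson interval 3.15 to 7.68). Of all shared peaks, 2.84% were above 0.5 and 7.84% below -0.5. WT and KO tags correlated across the 986 members at a Spearman correlation of 0.95 (Pearson r 0.93 on log2 tags). Part of the split depends on the unit. Per kb of peak 14 members were higher and 26 lower, against 2.25% and 6.46% of all shared peaks, and 14 were higher and 26 lower over merged regions, in which all overlapping peaks of both libraries were summed, against 2.27% and 7.87%.

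**Figure D4:**
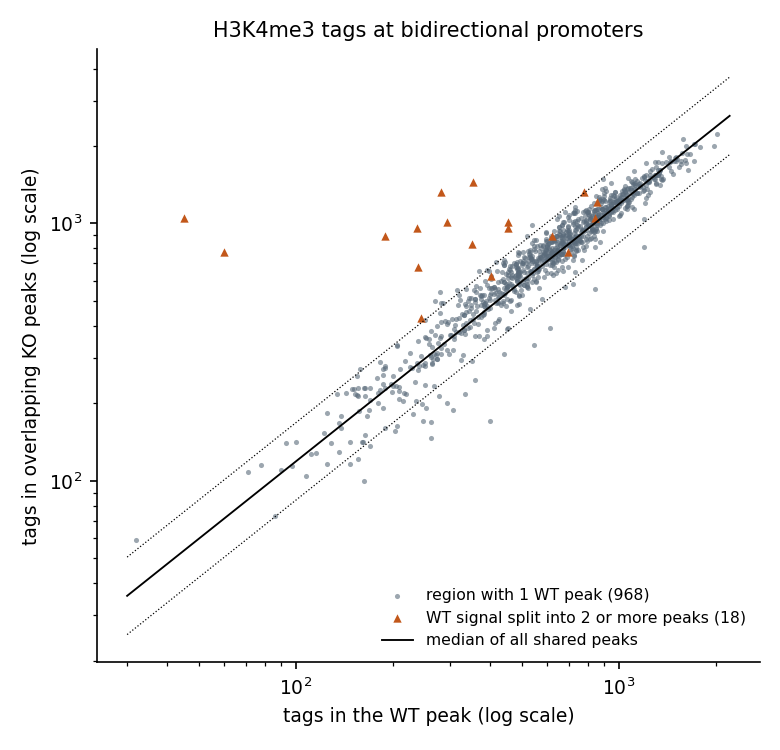
Each point is 1 of the 986 members, with tags in the WT peak on the x axis and tags in all overlapping KO peaks on the y axis, both on log scales; the line is the median of all shared peaks and dotted lines are 0.5 on the log2 scale to either side. The 968 members in regions with 1 WT peak follow the line, and most of the 18 members whose region was split into 2 or more WT peaks (triangles) lie above it.

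The 8 highest ratios all came from regions where the WT list had several peaks and the KO list had 1. Prrc2a, an RNA-binding protein gene paired with ENSMUSG00000090936, had 45 tags in the WT peak and 1053 in the KO peak (ratio 4.30), but 885 and 1053 over the merged region (0.00). Ripk2, a kinase gene of innate immune signalling paired with A530072M11Rik, had 60 and 774 tags (3.44), and 754 and 774 merged (-0.21). The others were Urod/Hectd3 (1.99, merged -0.11), Rnf5/Agpat1 (1.99, merged 0.07), Mob3a/Izumo4 (1.79, merged -0.15), D330041H03Rik/Rnps1 (1.77, merged 0.23), 5730422E09Rik/Uspl1 (1.54, merged 0.20) and H2bc23/H2ac23 (1.26, merged 0.61). Of the 8 members above 1, against 0.91% of all shared peaks, none was above 1 over merged regions, against 0.441%. Per kb of peak 2 members were above 1, Prrc2a and Ripk2, against 0.338% of all shared peaks.

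Of members above 0.5, 7 were so by tags, per kb and merged alike (0.710%), against 1.0% of all shared peaks and 49 of 6755 one-sided peaks (0.725%). They were named after their values were seen. Among them were Cdc25c, a phosphatase of mitotic entry (269 tags in WT, 501 in KO, ratio 0.65, counting interval 0.43 to 0.86), Usp5/Cdca3, with the mitotic entry factor Cdca3 (538 and 983, 0.62, interval 0.47 to 0.77), Ndc80, a kinetochore subunit (369 and 655, 0.58, interval 0.39 to 0.76) and Brd8/Kif20a, with a cytokinesis kinesin (519 and 895, 0.53, interval 0.38 to 0.69). The recombination gene Rad54l, paired with Pomgnt1, had 282 and 490 tags (0.55, interval 0.33 to 0.76). Fbxo48, paired with ENSMUSG00000087060, had 280 and 542 (0.70). The last, ENSMUSG00000081406/ENSMUSG00000075276, had only 32 and 59.

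The 8 lowest ratios came mostly from coding genes with a partner lacking an Entrez identifier. Such pairs were also common among the 986 members, and 208 such pairs had a KO summit inside a gene. Whether they were lower in KO more often than other members was not tested. Basp1, a membrane-associated signalling protein gene paired with ENSMUSG00000056089, had 399 tags in WT and 170 in KO (ratio -1.48, interval -1.74 to -1.22, and -1.11 per kb). Fzd6, a Wnt receptor gene paired with ENSMUSG00000097875, had 262 and 147 (-1.09, interval -1.38 to -0.79, and -0.97 per kb). These were the 2 members below -1, against 1.6% of all shared peaks, and also the 2 below -1 over merged regions, against 1.59%. Per kb the 2 below -1, against 0.797%, were Basp1 and Nrep. Ypel3 had 546 and 336 tags (-0.95), Nrep 162 and 100 (-0.95), Gatsl2 306 and 189 (-0.95), and Ppp1r3d/Fam217b 261 and 169 (-0.88). Trib2, a pseudokinase gene, had 612 and 393 (-0.89, but -0.45 per kb). ENSMUSG00000086526/Gm12758, a feature with no Entrez identifier and a lncRNA gene, had 333 and 218 (-0.86, but -0.38 per kb). The KO peak of Trib2 was 2528 bp wide against 3567 bp in WT. Of the 26 members below -0.5, 19 had under 400 WT tags (73.1%), and so had 346 of the 486 one-sided peaks below -0.5 (71.2%). By tags, per kb and merged alike, 19 members were below -0.5 (1.93%, interval 1.24 to 2.99), against 4.74% of all shared peaks and 329 one-sided peaks (4.87%, interval 4.38 to 5.41).

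DNA repair genes were often at bidirectional promoters, and in pairs with another coding gene the summit usually lay on the partner. Of 69 repair genes at shared peaks shorter than 4000 bp, 28 were at members (40.6%, Wilson interval 29.8 to 52.4), against 1717 of all 9341 named genes (18.4%). With a coding partner, the WT summit lay on the repair gene at 3 of 21 with a summit inside a gene (14.3%, interval 4.98 to 34.6) and the KO summit at 4 of 21 (interval 7.67 to 40.0). It lay on Npat, a histone gene coactivator, rather than the damage kinase gene Atm, on Mcm4 rather than Prkdc, and on Taf9 rather than Rad17. With a partner not annotated as coding, it lay on the repair gene at 6 of 6 in both libraries. Lig3, Rad18, Rad52 and Ogg1 were among them, each with a partner that has no Entrez identifier. This split was looked for after the summit sides were seen, and the lists were small.

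H3K4me3 at the repair pairs had a median ratio of 0.19, with 3 of 28 above 0.5 and none below -0.5, against 2.84% and 7.84% of all shared peaks. One-sided peaks of repair genes had a median of 0.13, with 2 of 34 above 0.5, against 2.41% of all one-sided peaks. Atm/Npat had 906 tags in WT and 1163 in KO (0.11). Wrn/Purg stood lower, with 1116 and 1142 (-0.22), and ENSMUSG00000085175/Lig3 had 933 and 1027 (-0.11). The 3 above 0.5 were Rad54l/Pomgnt1, Mospd2/Fancb (158 and 273 tags, 0.54, and 0.43 per kb) and Ogg1, an oxidised base glycosylase gene (285 and 491 tags, 0.53, and 0.46 per kb).

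Replication genes at members had a median ratio of 0.21, and those at one-sided peaks 0.34. All 17 of 68 listed replication and cell cycle genes (25%, interval 16.2 to 36.4) had a ratio within 0.5 of 0, and 10 of 17 counting intervals lay above 0 and none below, against 29.4% and 11.3% of all members. Of the one-sided peaks of listed genes, 13 of 45 were above 0.5, against 2.41% of all one-sided peaks. The difference between the classes was not tested. Prpf38a/Orc1, with a subunit of the origin recognition complex, had 699 tags in WT and 1078 in KO (0.37), and Vps35/Orc6 had 1110 and 1605 (0.28). Aurka/Cstf1, with a mitotic kinase, had 888 and 1360 (0.36), and Mcm4/Prkdc, with a subunit of the replicative helicase, had 596 and 923 (0.38). Pcna, the sliding clamp gene paired with ENSMUSG00000087377, had 702 and 947 (0.18).

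Genes of the mitochondria and of protein turnover had median ratios of 0.14 to 0.16. Counted by member peak, intervals lay above 0 at 8 of 19 peaks of mitochondrial ribosome genes and 13 of 28 of respiratory chain genes. For proteasome and chaperone genes they lay above 0 at 7 of 16 peaks. The share above 0 was 29.4% of all members and 20.1% of all shared peaks. Intervals lay below 0 at 0, 1 and 1 peaks of these lists. At one-sided peaks the median ratios of the lists were 0.14, 0.16 and 0.11 in the same order. Of 76 mitochondrial ribosome genes 19 were at members (25%), with a median ratio of 0.14 and 1 above 0.5, Mrpl10/Lrrc46 (251 and 423 tags, 0.50, but 0.25 per kb). Of 91 respiratory chain genes 28 were at members (30.8%, interval 22.2 to 40.9), with a median of 0.16 and none beyond 0.5. Cox4i1, a cytochrome oxidase subunit gene, had 1339 and 1613 tags (0.02), and Atp5h/Kctd2 had 1207 and 1476 (0.04). Of 80 proteasome and chaperone genes 16 were at members (20%), with a median of 0.14. Psma7/Ss18l1, with a proteasome core subunit, had 1604 and 1771 (-0.11), and Psmc3, a regulatory ATPase of the proteasome, was the 1 above 0.5, with 415 and 707 (0.52, but 0.46 per kb).

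Genes of translation and RNA processing gave 41 of 158 at members (25.9%, interval 19.7 to 33.3), with a median ratio of 0.09, which was also the median at one-sided peaks. S100pbp/Yars, with the tyrosyl tRNA synthetase gene, had 1499 tags in WT and 1749 in KO (-0.03), and Srsf7/Ttc39d, with a splicing factor gene, had 1300 and 1655 (0.10). Ddx25/Pus3 was the 1 member of the list below -0.5, with 294 and 200 (-0.81, but -0.16 per kb), and its summit lay on Pus3, a pseudouridine synthase gene.

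Histone genes had the highest share at members of the functional lists after DNA repair, at 22 of 58 (37.9%, interval 26.6 to 50.8) in 14 peaks, mostly H2A genes back to back with H2B genes. Their level was low, with a median of 192 WT tags, and the median ratio was 0.25 by tags but 0.00 per kb. H2bc13/H2ac13 had 379 and 496 tags (0.14) and H3c15/ENSMUSG00000093577 had 1095 and 1157 (-0.17). Histone gene copies are similar in sequence, and how reads with several matches were placed is not given in the sources used here. Its effect on these counts was not tested, and single values are uncertain.

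Of 13 NK effector and receptor genes at shared peaks shorter than 4000 bp, 0 were at a bidirectional promoter (Wilson interval 0 to 22.8%). The share over all named genes, 18.4%, lies inside that interval. All 13 peaks were one-sided, with a median ratio of 0.24 and 5 above 0.5, against 163 of all 6755 one-sided peaks (2.41%).

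**Figure D5:**
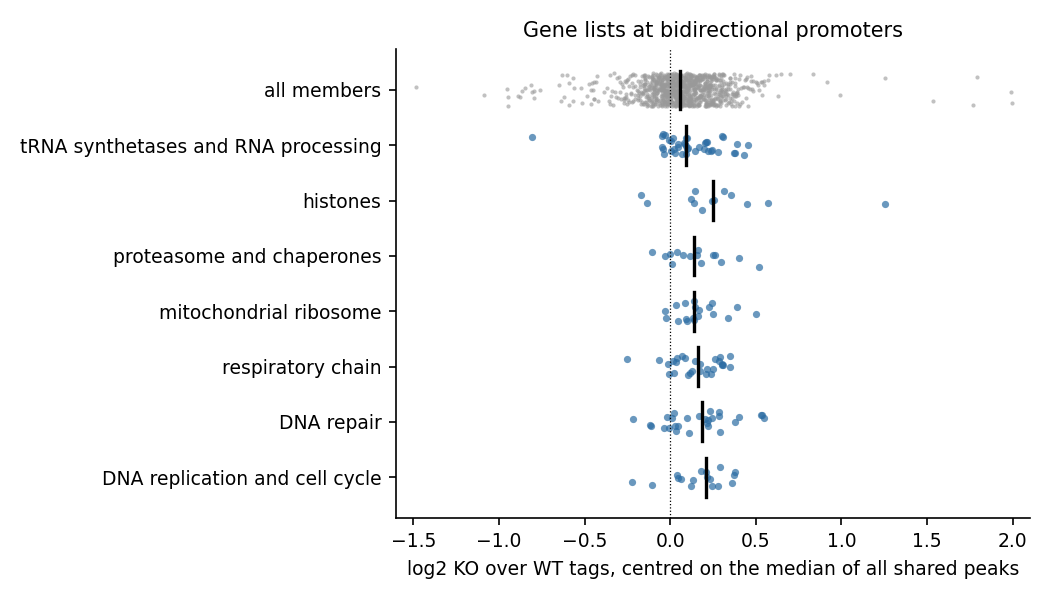
Each point is the centred log2 ratio of KO over WT tags at 1 member peak of a gene list, black bars are medians, and the dotted line is the median of all shared peaks; vertical scatter has no meaning. The list medians lie between 0.09 and 0.25 and most points within 0.5 of 0; of all members, shown in grey, 2 with ratios above 2 are outside the plot.

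Of 18 divergent pairs known in mammals that were searched, 6 were members. Ndufs1/Eef1b2, a complex I subunit gene and a translation elongation factor gene whose starts lie 3 bp apart, had 899 and 1283 tags (0.26). Mrps12/Sars2, both for mitochondrial translation, had 322 and 502 (0.39), and Psenen/U2af1l4, with a gamma-secretase subunit gene, had 582 and 818 (0.24). Brca1/Nbr1 had 568 and 826 (0.29), and Mcm4/Prkdc and Atm/Npat are given above. All 6 ratios were above 0, and the counting interval of Atm/Npat alone reached below it (-0.02). Of the others, 9 had annotated 5′ ends that overlap, such as Hspd1/Hspe1, Surf1/Surf2 and Ppat/Paics (plus strand start at -111, -163 and -271 bp from the minus strand start), which the rule does not take. Gart/Son had a peak above the length limit, the listed starts of Pcna and Cds2 lay 9834 bp apart, and Col4a1/Col4a2 was not among the listed features.

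Tcf1 peaks were rare at members and at all shared H3K4me3 peaks alike. A WT Tcf1 peak overlapped 2 of 986 (0.203%, Wilson interval 0.0556 to 0.737), against 0.347% of all shared peaks and 17 of 6755 one-sided peaks (0.252%). A KO Tcf1 peak overlapped 0 of 986, which allows a share of up to 0.304% by a limit of 3 counts and 0.388% by the Wilson interval, against 0.3% of all shared peaks. Zfp142/Bcs1l, a zinc finger gene and a complex III assembly gene, had a WT Tcf1 peak of 59 tags (score 123, FDR 6.94%) with its summit 111 bp from the nearest start. That summit lies outside the 42 bases between the starts printed above. H3K4me3 there was 491 tags in WT and 768 in KO (0.39, interval 0.23 to 0.56, but 0.16 per kb). The other, at ENSMUSG00000086477/Prkrir, had 28 tags (score 63.7, FDR 19.9%), and H3K4me3 there was 942 and 1104 tags (-0.02).

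The limit of 4000 bp cut through a continuous range of widths. Just inside it lay ENSMUSG00000069713/Bclaf1, 3991 bp wide with 1139 tags in WT and 1466 in KO, and Med14/Gm14634, 3987 bp wide with 596 and 735. Just outside lay a peak at H2ac8/H2bc8 (345 and 503 tags), where another, shorter peak is a member, and Exosc8/Alg5 (1428 and 1733), both 4003 bp wide. All 986 members had a WT FDR of at most 1%, and 984 had a score of at least 100.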

How the data were processed

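H3K4me3 and Tcf1 were measured by ChIP-seq with single-end reads of 100 bases in 1 library per genotype and antibody. The tools MACS 1.4 and Bowtie2 2.1.0 and the builds GRCm38, mm10 and GRCh37 are listed, per the submitters' processing notes. The role of each build, the peak settings and the control track are not given in the sources used here, and positions were read as GRCm38. Input libraries were not analysed here. The deposited lists give for each peak a count of tags not scaled to depth, a fold enrichment (a ratio over the peak caller's background) and an FDR in percent. The deposited score is 10 times the negative log10 of a p-value, per the file headers.

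Rows were reduced to distinct peaks, and starts, which count from 0, were converted to count from 1. KO tags of a member were summed over all overlapping KO peaks (1 bp or more) and divided by WT tags, and this ratio was centred, on the log2 scale, at the median of all shared peaks. Called means beyond 0.5. Counting intervals assume Poisson counts, and intervals are at 95%. PCR copies were not identified, so intervals cover counting error only. Gene names and types came from the lists and RefSeq (GRCm38.p6), and 1412 of 1948 partners had a RefSeq promoter, 1238 of them within 100 bp of the Ensembl start. Matches were searched on both strands.

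The members, the 9 gene lists and the rule for named genes were chosen with earlier results of these data known. The rule took known pairs, the 10 members with most WT tags, the 8 highest and 8 lowest ratios (at least 100 tags in 1 library), up to 4 members per list, members with a WT Tcf1 peak, the 3 shortest and 3 longest distances and the 2 peaks on each side of the length limit. Members named outside this rule, such as the few beyond 0.5 in a gene list, were named after their values were seen. A few members that the rule takes are not reported here. Alternatives varied the distance, window, overlap, score, FDR, length limit, annotation, unit, centring and motif window. The selection and the ratios were tested on simulated data. In these, KO peaks had the same width as WT peaks and none was split. The effect of split peaks and separately called peak ends was therefore not covered. Tables were handled in pandas 2.3.3 under Python 3.11.15, with numpy 2.4.6, intervals came from scipy 1.17.1, and figures from matplotlib 3.10.9.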

Additional observations from a re-analysis of the deposited data

How the results depend on the processing

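Of 135 comparisons of a summary value with an alternative, 120 stayed within the interval of the value or within 1.5 times of a count, and 15 moved. Members above 0.5 numbered 26, and 16 where the peak had to cover both starts, 14 per kb of peak, 14 over merged regions, 8 beyond 1 and 13 in regions with 1 WT peak (this last choice was made after seeing the data). Members below -0.5 numbered 26, and 16 where the KO peaks also needed an FDR of at most 1%, which leaves out 29 members, and 2 beyond 1. Summits between the starts made up 1.83% in WT and 1.62% in KO, and 0.244% and 0.122% at distances up to 300 bp. The correlation of distance and WT width (0.13) was 0.19 where the peak covered both starts and -0.0062 with distances up to 300 bp left out. The ratio of median WT tags to one-sided peaks (1.34) was 1.28 with the same FDR limit. WT Tcf1 peaks at members numbered 2, and 1 with a score of at least 100 and 1 with a summit between the starts or within 200 bp. The ETS share (30.8%) was 24.9% in the 250 bases before the start. For these the cause was not tested, except that stricter rules leave fewer peaks. Ratios beyond 0.5 that changed sign were Mob3a/Izumo4 (1.79, -0.32 per kb and -0.15 merged), H2bc23/H2ac23 (1.26, -0.089 per kb), Ripk2/A530072M11Rik (3.44, -0.21 merged) and Urod/Hectd3 (1.99, -0.11 merged). A further 9 named members with ratios of at most 0.14 in size changed sign per kb, to values between -0.080 and 0.092.

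No paired analysis was possible because each group is 1 library. Leaving out a replicate was not possible for the same reason. Peaks were called in each library separately, so tags depend on where a peak ends. Counting error is largest at the 64 members with under 200 WT tags, such as Mospd2/Fancb (0.54, interval 0.25 to 0.82).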

Other observations

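Bidirectional promoters outside the length or overlap rule had other levels. The 86 shared bidirectional peaks of 4000 bp or more had a median of 1406 tags in WT and 1736.5 in KO, with a median ratio of 0.04, and 1 WT summit between the starts. Of these 86, 43 were pairs of 2 coding genes. The 51 bidirectional WT peaks shorter than 4000 bp with no KO peak had a median of 92 tags, 4 summits between the starts and 19 pairs of 2 coding genes. Those with most tags were ENSMUSG00000096940/Sdc1, with the syndecan gene Sdc1 (249 tags), ENSMUSG00000085658/Rassf8 (228) and Tle1/ENSMUSG00000084910, with a corepressor gene that partners Tcf/Lef factors (225). They were named after their values were seen, and 92 tags is far below the 619.5 of the members.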
